A study of Mus musculus with 18 samples.

Results

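The subject of this comparison is the pair of FOXS1 KO clones after stimulation, both made from 10T1/2 cells (CH310T1/2 in the labels), mouse embryo fibroblasts that can become fat, cartilage or muscle cells. The members are 6 of the 18 libraries of the experiment: 3 of FOXS1 KO clone 1 and 3 of FOXS1 KO clone 2, both given TGF-β1 at 1 nM during the first 12 h, followed by 48 h of DMII. DMII is an adipogenic mix of insulin, indomethacin, dexamethasone and the phosphodiesterase inhibitor 3-isobutyl-1-methylxanthine. The other libraries were 3 each of uninduced clone 1, uninduced clone 2, uninduced WT and stimulated WT cells, all from the same line. Each clone was expanded from a single CRISPR-Cas9-edited cell, so a clone stands for 1 editing event and 1 founder cell, and both clones carry the FOXS1 KO label. Nothing in the sources used here says that the 3 libraries of a group came from separate cultures, and p-values then measure only the spread between these libraries.

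Stimulated libraries held 20232140 to 29383944 counts on genes in clone 1 and 17591048 to 20125767 in clone 2. Of 54532 genes in the table, 25899 were counted at least once over the 18 libraries, and the 14317 left by a filter on low counts were tested. Values are counts per M counts after TMM scaling (CPM), and a positive log2 fold change means higher in clone 1. A DEG has an adjusted p below 0.05 (edgeR quasi-likelihood test, Benjamini-Hochberg over all 14317 genes) and an absolute log2 fold change above 1. All adjusted p-values below are from that test. Where libraries of the clones are said not to overlap, this describes the values and adds no support to that test. The share of all tested genes without overlap is not given here. Across genes, Pearson r was 0.988 to 0.992 for the 6 pairs of libraries within a clone and 0.955 to 0.961 for the 9 pairs between the clones. In bulk RNA, fewer cells expressing a gene and less of its RNA in every cell cannot be told apart.

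*Foxs1* (ENSMUSG00000074676, GRCm38 chr2:152931898-152933208), the edited gene, had 53.6, 52.9 and 56.8 CPM in the 3 libraries labelled stimulated clone 1 and 38.8, 38.0 and 42.8 CPM in those labelled stimulated clone 2. Every clone 1 library lay above every clone 2 library, and all 6 lay above stimulated WT cells at 2.51 ± 0.641 CPM (SD, n = 3). The log2 fold change between the clones was 0.45 (SE 0.11, adjusted p = 0.00157), under the fold threshold. Gene totals do not show which *Foxs1* alleles a clone carries, so these values do not check the edit. By its methods, the study checked the clones by reading the edited locus and by blotting for the protein, and neither measure is analysed here.

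TGF-β1 drives fibroblasts towards a myofibroblast state with much collagen, fibronectin and contractile protein, whereas DMII induces adipogenesis through C/EBP factors and PPARγ. Adipocytes build lipid droplets that perilipins and CIDE proteins coat and that lipases such as ATGL and monoglyceride lipase break down. FOXS1 is a forkhead transcription factor that TGF-β1 induces.

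The 2 stimulated clones differed at 1429 DEGs, or 9.98% of the genes tested. Clone 1 was higher at 787 (5.50% of the genes tested) and lower at 642 (4.48%). Counts of DEGs in gene lists below are to be read beside these shares, and a list near them is not set apart by its count. The median log2 fold change of all tested genes was 0.00. Among the DEGs, 636 differed by more than 2 on the log2 scale, 357 by more than 3 and 169 by more than 5. Most DEGs coded for protein, 1235 of them, and 57 were lincRNAs. With no fold threshold, 6500 genes passed the adjusted p.

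Several genes of lipid storage and breakdown were higher in clone 1 than in clone 2. Among 14 tested genes of lipid droplet coats and lipolysis, 6 were higher in clone 1 and 1 was lower, and their median log2 fold change was 0.77. *Plin4* (perilipin 4, a droplet coat protein; GRCm38 chr17:56100591-56109803) stood at 139, 165 and 136 CPM in clone 1 and at 11.3, 9.48 and 9.32 CPM in clone 2. All 3 clone 1 libraries were far above all clone 2 libraries, with a log2 fold change of 3.87 (SE 0.11, adjusted p = 1.00e-18). Stimulated WT cells had 0.122 ± 0.0513 CPM (SD, n = 3), so both clones lay above WT. *Plin1*, the main coat protein of adipocyte droplets, had 7.56, 9.59 and 6.19 CPM in clone 1, against 0.280, 1.18 and 0.481 CPM in clone 2 (log2 fold change 3.61, SE 0.52, adjusted p = 1.91e-06). *Cidec*, which helps droplets fuse, had 6.39, 7.96 and 8.34 CPM in clone 1, against 0.112, 0 and 0 CPM in clone 2, where 2 counts in all were found. The groups did not overlap for either gene, and stimulated WT cells had means of 0 and 0.0601 CPM.

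Lipases differed in both directions. *Pnpla2* (ATGL, which takes the first fatty acid off triglyceride) had 102, 101 and 93.1 CPM in clone 1 against 26.6, 25.04 and 22.2 CPM in clone 2, a log2 fold change of 2.01 (SE 0.21, adjusted p = 1.76e-06). *Mgll*, which cleaves the last fatty acid, had 29.7, 32.6 and 26.6 CPM in clone 1, against 2.30, 2.81 and 2.65 CPM in clone 2 (log2 fold change 3.52, SE 0.15, adjusted p = 1.90e-17). Stimulated WT cells had 18.2 CPM of *Pnpla2* and 2.94 CPM of *Mgll* on average, nearer to clone 2 at both genes. *Lpl*, the lipase that frees fatty acids from lipoproteins, was chosen after its values were seen, because it ran the other way. It had 0.426, 0.221 and 0 CPM in clone 1, against 2.41, 3.60 and 3.43 CPM in clone 2, with a log2 fold change of -3.88 (SE 0.37, adjusted p = 6.06e-10).

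Of 36 tested genes of fatty acid uptake and oxidation, 7 were higher in clone 1 and 2 lower, with a median log2 fold change of 0.35. *Fabp4*, the fatty acid carrier of adipocytes, had 16.3, 25.04 and 19.9 CPM in clone 1, against 3.92, 3.47 and 2.105 CPM in clone 2 (log2 fold change 2.69, SE 0.27, adjusted p = 5.98e-09). *Acsl1*, which activates long-chain fatty acids, had 205, 245 and 222 CPM against 55.8, 57.7 and 52.7 CPM (log2 fold change 2.02, SE 0.067, adjusted p = 2.61e-20). Each clone 1 library was above each clone 2 library at both genes. *Acadm*, a dehydrogenase of mitochondrial β-oxidation, had a mean of 189 ± 0.381 CPM in clone 1, against 70.3 ± 2.15 CPM in clone 2 (SD, n = 3). *Cat* (catalase, which clears the peroxide of peroxisomal oxidation) had 522 ± 21.7 and 176 ± 5.87 CPM, and was among the 5 most abundant genes that were higher in clone 1. The lower genes were *Acsl4*, a ligase of arachidonic acid (123 ± 4.87 against 349.5 ± 11.01 CPM), and *Pdk4*, a kinase that restrains glucose oxidation (163 ± 9.52 against 497 ± 27.9 CPM).

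Genes of fatty acid and triglyceride synthesis gave 3 higher and 2 lower of 25 tested (median log2 fold change 0.28). *Agpat2*, an acyltransferase on the way to triglyceride, had 109, 121 and 99.7 CPM in clone 1, against 19.7, 18.7 and 18.2 CPM in clone 2 (log2 fold change 2.55, SE 0.10, adjusted p = 1.81e-18). *Srebf1*, the transcription factor of lipogenic genes, had 203 ± 4.35 against 74.9 ± 1.32 CPM (SD, n = 3; log2 fold change 1.44). *Lpin1*, a phosphatidate phosphatase, had 10.4 ± 1.95 against 24.6 ± 0.404 CPM and was lower in clone 1. *Acacb*, the acetyl-CoA carboxylase of mitochondria, had no count in the clone 1 libraries and 1.85, 2.35 and 2.04 CPM in clone 2. The sterol synthesis genes gave 1 DEG of 23 tested, *Hmgcs1*, with 474 ± 32.2 CPM in clone 1, against 232 ± 6.93 CPM in clone 2.

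Of 27 tested adipogenic regulators, 7 were higher in clone 1 and 3 lower, with a median log2 fold change of 0.43. The list was not split by whether a member promotes or restrains adipogenesis, so these counts give no direction for it. Its most abundant DEG, *Wisp2*, was higher in clone 1 (log2 fold change 1.39, mean 231 CPM over the 6 libraries), as was *Gata2* (1.98). *Cebpa* (C/EBPα, a late adipogenic factor; GRCm38 chr7:35119293-35121928) had 125, 121 and 109 CPM in clone 1, against 23.8, 23.3 and 24.8 CPM in clone 2. The groups were far apart (log2 fold change 2.30, SE 0.069, adjusted p = 2.36e-21), and stimulated WT cells lay between them at 47.6 ± 1.145 CPM. *Klf4*, an early factor that is lost as adipogenesis proceeds, had 11.7, 14.8 and 12.2 CPM against 37.7, 35.0 and 39.9 CPM (log2 fold change -1.53, SE 0.093). *Pparg*, the master regulator of adipogenesis, was chosen after its values were seen. It had 35.6, 36.2 and 33.3 CPM in clone 1, against 20.8, 22.03 and 17.4 CPM in clone 2, without overlap, but its log2 fold change of 0.80 (SE 0.091, adjusted p = 1.60e-08) was under the fold threshold. Of 14 tested adipogenesis genes that the study named, which it chose on these libraries, 5 were higher and 0 lower (median 0.81), so that count is not independent evidence of a direction.

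The adipocyte markers as a whole were few. Of 12 listed, 6 were tested, 4 of them higher in clone 1 and *Lpl* lower, and *Cfd*, *Retn* and *Lep* had no count in any of the 6 libraries. Summed over the list, the level ran from 170 to 208 CPM in stimulated clone 1, from 15.5 to 18.2 CPM in stimulated clone 2 and from 4.40 to 5.14 CPM in stimulated WT cells. *Plin4* made up most of the sum in both clones but not in WT cells, where it had 0.122 CPM. In uninduced cells the sum of the list was 170 to 203 CPM in clone 1, 112 to 123 CPM in clone 2 and 71.0 to 83.5 CPM in WT. The stimulated sum was thus similar to the uninduced one in clone 1 and lower than it in clone 2 and WT.

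**Figure D1:**
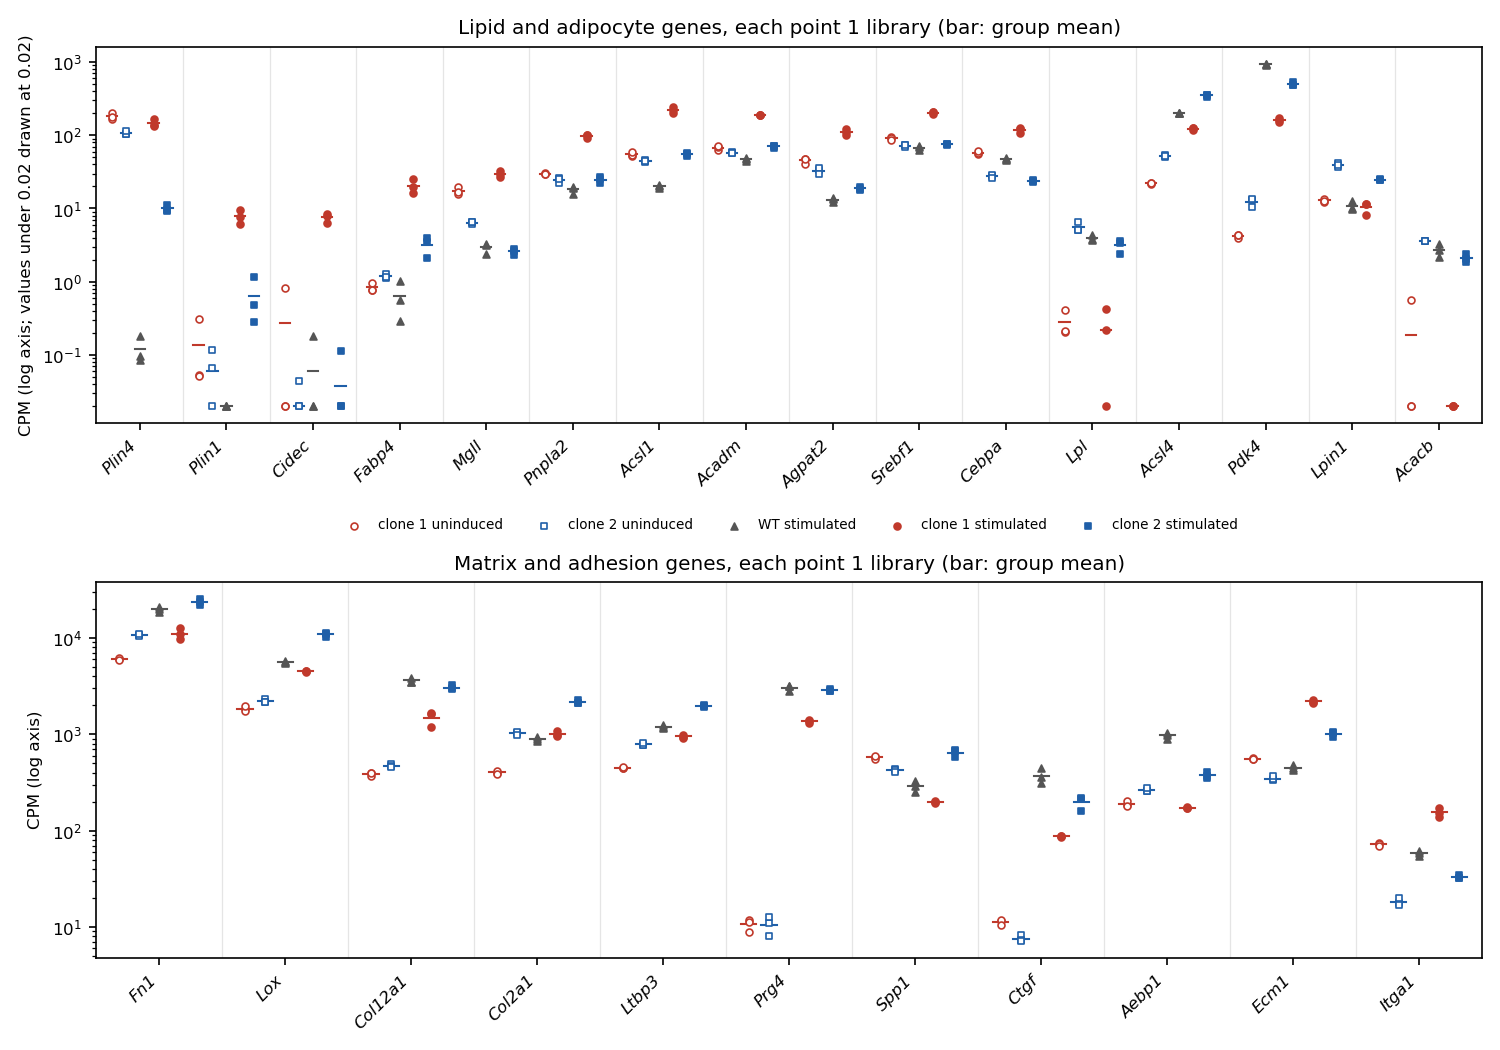
CPM on a log axis of 16 lipid genes (top) and 11 matrix and adhesion genes (bottom); each point is 1 library, each short bar the mean of the 3 libraries of a group, and values under 0.02 CPM are drawn at 0.02. Stimulated clone 1 libraries sit above stimulated clone 2 libraries at the first 11 genes of the top panel, from *Plin4* (139, 165 and 136 against 11.3, 9.48 and 9.32 CPM) to *Cebpa*, and below them at the last 5, *Lpl*, *Acsl4*, *Pdk4*, *Lpin1* and *Acacb*; genes were picked from those described in the text. They also sit below them at 9 of the 11 genes of the bottom panel, the exceptions being *Ecm1* and *Itga1*.

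The sequences upstream of 2 of these genes are shown because each holds a motif of interest for a forkhead study or for a core promoter. They are RefSeq GRCm38.p6 sequences on the + strand, the 250 bases before the annotated start, with the motif in capitals. The forkhead core was searched as GTAAACA and its reverse complement TGTTTAC, the TATA box as TATAAA and TTTATA, and these letters cannot overlap between the motifs. In *Mgll* (chr6:88724162-88724411) the forkhead core begins 241 bases before the start, and in *Cebpa* (chr7:35119043-35119292) the TATA box begins 30 bases before it.
Mgll: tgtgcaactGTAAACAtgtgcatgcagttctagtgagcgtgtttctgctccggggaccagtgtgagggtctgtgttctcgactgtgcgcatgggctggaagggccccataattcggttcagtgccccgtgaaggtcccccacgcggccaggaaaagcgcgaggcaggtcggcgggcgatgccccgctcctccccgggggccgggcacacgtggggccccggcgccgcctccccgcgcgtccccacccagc
Cebpa: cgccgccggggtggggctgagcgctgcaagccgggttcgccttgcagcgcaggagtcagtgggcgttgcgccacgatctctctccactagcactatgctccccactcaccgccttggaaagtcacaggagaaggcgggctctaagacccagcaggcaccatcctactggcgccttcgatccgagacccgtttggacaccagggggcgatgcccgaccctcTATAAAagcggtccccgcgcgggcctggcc
Over windows of 300 bases, which include 50 bases after the start, the forkhead core occurred in 3.65% of all 32851 windows and in 2.48% of the windows of tested genes. It occurred in 3.38% of windows of DEGs higher in clone 1 (514 of 787 genes matched) and in 2.29% of windows of DEGs lower in clone 1 (464 of 642 matched). The TATA box occurred in 7.19% of windows of tested genes, in 10.8% of windows of the higher DEGs and in 8.20% of those of the lower DEGs. A match of letters is a description and not a binding site.

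Clone 2 carried more RNA for several abundant matrix proteins. Of 45 tested matrix glycoproteins and crosslinkers, 11 were lower in clone 1 and 7 were higher, with a median log2 fold change of -0.15. *Fn1* (fibronectin; GRCm38 chr1:71585520-71653200) had 9613, 12639 and 10992 CPM in clone 1, against 21721, 23526 and 25144 CPM in clone 2. Clone 2 was the nearer to stimulated WT cells, which lay at 19774 ± 1188 CPM (SD, n = 3), and every clone 1 library was lower (log2 fold change between the clones -1.08, SE 0.11, adjusted p = 1.47e-06). *Lox*, the lysyl oxidase that crosslinks collagen, had 4525, 4524 and 4398 CPM in clone 1 against 10319, 11031 and 11248 CPM in clone 2. Here stimulated WT cells at 5623 ± 142 CPM were nearer to clone 1, and the log2 fold change was -1.28 (SE 0.044, adjusted p = 5.28e-20). *Ltbp3*, which binds latent TGF-β, had 949 ± 36.6 CPM in clone 1, against 1964 ± 45.9 CPM in clone 2. Outside that list, *Prg4* (lubricin) was among the 5 most abundant genes lower in clone 1 and had 1364 ± 49.2 and 2868 ± 60.2 CPM. *Spp1* (osteopontin) had 202, 199 and 196 CPM against 576, 683 and 663 CPM (log2 fold change -1.69, SE 0.081, adjusted p = 8.92e-13). *Ctgf*, a matricellular target of TGF-β, had 86.8, 88.5 and 87.1 CPM against 219, 214 and 160.0 CPM (log2 fold change -1.17, SE 0.13, adjusted p = 2.99e-06). None of these genes overlapped between the clones. *Aebp1*, chosen after its values were seen, had 172 ± 3.25 and 374 ± 28.5 CPM.

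*Ecm1*, a secreted matrix glycoprotein that is likewise not in the list, was higher in clone 1, with 2281, 2153 and 2131 CPM against 945, 1019.6 and 1047 CPM (log2 fold change 1.12, SE 0.051, adjusted p = 4.11e-17). Of the list, *Thbs2* (a matricellular thrombospondin) was higher in clone 1 and had 18.05, 19.5 and 19.5 CPM in clone 1, against 0, 0.0654 and 0 CPM in clone 2, while stimulated WT cells had 199 ± 4.85 CPM. Both clones were thus under WT at *Thbs2*, clone 2 at 1 count in all. Of 33 tested collagen genes, 3 were higher in clone 1 and 5 lower (median -0.34). *Col12a1*, a collagen that lies along fibrils, had 1194, 1651 and 1604 CPM against 2928, 2992 and 3233 CPM (log2 fold change -1.04, SE 0.11, adjusted p = 4.72e-06). *Col2a1*, the collagen of cartilage, had 1009.6 ± 65.2 against 2152 ± 97.3 CPM, and *Col9a1*, which decorates it, had 5.99 ± 0.660 against 14.8 ± 0.550 CPM. *Col5a3*, by contrast, was higher in clone 1 at 67.1 ± 4.45 against 13.2 ± 2.42 CPM (log2 fold change 2.36). Several calls in this group lie near the fold threshold. Without clone 1 replicate 1 the log2 fold change was -0.99 for *Fn1* and -0.91 for *Col12a1*, which also lost its call without clone 2 replicate 3. Tested against the fold threshold itself (glmTreat), *Fn1*, *Col12a1*, *Col2a1*, *Col9a1*, *Ltbp3*, *Prg4*, *Ctgf*, *Aebp1*, *Ecm1* and *Hmgcs1* did not pass, and neither did *Lpin1*, *Cdh13*, *Notch3*, *Gli1*, *Pgam1*, *P4ha1*, *Atf3*, *Ccnd2*, *Mt2*, *Rgs5*, *Lmod1*, *Serpina3c*, *Serpina3h* and *Xist*, which are described in other paragraphs. *Hmgcs1* also lost its call without clone 1 replicate 2 (1.00).

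Among 25 tested integrins and cadherins, the adhesion receptors for matrix and for neighbouring cells, 8 were higher in clone 1 and 1 was lower (median log2 fold change 0.26). *Itga1*, a collagen-binding integrin chain, had 139, 171 and 153 CPM in clone 1, against 32.5, 32.4 and 34.9 CPM in clone 2 (log2 fold change 2.21, SE 0.080, adjusted p = 1.88e-19). *Itga11*, another collagen-binding chain, had 16.2, 14.0 and 8.56 CPM in clone 1, against 0.616, 0.0654 and 0.301 CPM in clone 2. Both clones were low at *Itga11* beside stimulated WT cells at 204 ± 14.7 CPM (SD, n = 3), and clone 1 was higher than clone 2 (log2 fold change 5.21, SE 0.42, adjusted p = 5.47e-08). *Cdh13*, a cadherin held by a lipid anchor, had 84.1 ± 1.54 against 38.8 ± 3.11 CPM. *Itgb8*, an integrin chain that releases latent TGF-β, was the lower one, with 0.266, 0.0737 and 0 CPM in clone 1, against 12.2, 13.5 and 12.3 CPM in clone 2 (log2 fold change -6.86, SE 0.38, adjusted p = 3.35e-15).

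Several named genes differed by more than 7 on the log2 scale. *Thy1* (CD90, a fibroblast surface marker; GRCm38 chr9:44043384-44048579) had 168, 160.2 and 155 CPM in clone 1, against 0.448, 0.458 and 0.120 CPM in clone 2 (log2 fold change 8.86, SE 0.14, adjusted p = 4.13e-28). Stimulated WT cells had 49.0 ± 2.70 CPM, so clone 1 lay above WT and clone 2 far below it. *Rspo3*, a secreted amplifier of Wnt signalling, had 95.7, 99.1 and 109 CPM against 0.952, 0.654 and 0.421 CPM, with WT at 225 ± 10.0 CPM (log2 fold change between the clones 7.20, SE 0.13, adjusted p = 8.46e-27). Among 36 tested Wnt pathway genes, 4 were higher and 4 lower in clone 1. *Ptgis*, the prostacyclin synthase, had 117, 107 and 102 CPM against 0.336, 0.458 and 0.421 CPM (log2 fold change 8.06, SE 0.17). *Crip2*, a LIM-domain protein, ran the other way with 0.467 ± 0.217 CPM in clone 1, against 75.6 ± 2.66 CPM in clone 2 (log2 fold change -7.27, SE 0.16). So did *Pcdh1*, a protocadherin, with 0.106 ± 0.0315 against 20.7 ± 1.89 CPM (log2 fold change -7.57, SE 0.37).

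The TGF-β and BMP pathway gave 5 higher and 4 lower of 49 tested genes (median log2 fold change 0.02). *Fst*, a soluble trap for activins, had 283 ± 3.18 CPM in clone 1, against 119 ± 3.22 CPM in clone 2, and *Eng* (endoglin, a TGF-β co-receptor) had 128 ± 1.63 against 47.9 ± 4.98 CPM. *Notch3*, a receptor of mural cells, had 125 ± 2.54 against 60.1 ± 4.95 CPM, and it was 1 of 3 higher among 16 tested Notch pathway genes. Of 18 tested genes of the IGF axis, 4 were higher and 4 lower. *Igf1* itself had 13.8, 14.7 and 16.7 CPM in clone 1, against 1.90, 3.73 and 2.35 CPM in clone 2, both far below stimulated WT cells at 253 ± 2.90 CPM (log2 fold change between the clones 2.53, SE 0.14). *Igfbp5*, which binds it, had 4.10, 2.84 and 2.23 CPM against 97.6, 85.4 and 92.4 CPM (log2 fold change -4.93, SE 0.13, adjusted p = 4.34e-22). The FGF and PDGF pathway gave 3 higher and 4 lower of 25 tested, with the receptor *Fgfr2* at 59.6 ± 3.64 against 14.9 ± 0.893 CPM and the feedback inhibitor *Spry1* at 14.6 ± 1.17 against 68.4 ± 8.84 CPM. Hedgehog pathway genes gave 1 lower of 9 tested, *Gli1*, at 0.230 against 1.03 CPM. Contractile cytoskeleton genes gave 1 higher and 1 lower of 28 tested (7.14%, against 9.98% over all genes tested), with a median log2 fold change of -0.12. Of 13 tested genes of epithelial-to-mesenchymal transition (EMT) that the study named, which it chose on these libraries, 2 were higher and 2 lower (median 0.01). The most abundant of these EMT DEGs, *Lama1*, averaged 1.74 CPM over the 6 libraries.

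Genes of glycolysis and the hypoxia response were lower in clone 1 more often than higher, 7 against 1 of 35 tested, with a median log2 fold change of -0.62. *Pfkl* (liver phosphofructokinase) had 168, 166 and 162 CPM in clone 1, against 400.4, 390.1 and 407 CPM in clone 2 (log2 fold change -1.27, SE 0.049, adjusted p = 9.51e-19). *Pgam1* had 314 ± 17.4 against 661 ± 18.3 CPM, *P4ha1*, a collagen prolyl hydroxylase induced by hypoxia, 369 ± 10.96 against 754 ± 9.33 CPM, and *Ldhb* 10.4 ± 0.863 against 35.7 ± 1.33 CPM. *Pfkl* and *P4ha1* lie on chromosome 10 and *Pgam1* on chromosome 19, whose genes as a whole had negative medians, given below. Of 32 tested genes of the unfolded protein and integrated stress response, 3 were lower and 0 higher (median -0.25), a share of 9.4%, near the 9.98% over all genes tested. These were *Ddit3* (CHOP) at 22.5, 24.8 and 25.2 against 83.3, 86.1 and 82.8 CPM, its partner *Trib3* at 33.0 ± 1.26 against 96.5 ± 3.45 CPM, and *Atf3* at 0.406 against 1.21 CPM. Clone 2 was the higher of the 2 clones at all 3, and stimulated WT cells at 18.1 ± 1.08 CPM for *Ddit3* were nearer to clone 1.

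Cell cycle genes gave 2 higher and 2 lower of 55 tested, or 7.27%, under the 9.98% over all genes tested. Their median log2 fold change was 0.43, and 42 of the 55 had a positive sign. *Ccnb1*, the mitotic cyclin, had 83.9, 72.1 and 89.0 CPM in clone 1, against 25.7, 23.9 and 25.9 CPM in clone 2 (log2 fold change 1.70, SE 0.096). The G1 cyclins *Ccnd1* (11.2 ± 0.874 against 27.1 ± 0.328 CPM) and *Ccnd2* (53.05 ± 4.49 against 112 ± 7.34 CPM) were lower in clone 1. MYC and ribosome biogenesis genes gave 0 DEGs of 39 tested. The glucocorticoid-induced genes, a list chosen for the dexamethasone in DMII, gave 4 higher and 4 lower of 21 tested. *Dusp1*, a phosphatase that shuts off MAP kinases, had 144 ± 4.02 against 54.9 ± 1.56 CPM, whereas *Tsc22d3* (GILZ) had 31.5 ± 4.07 against 82.1 ± 1.43 CPM and *Mt2*, a metallothionein, 112 ± 10.98 against 267 ± 14.6 CPM. In uninduced cells the log2 fold changes of *Dusp1*, *Tsc22d3* and *Mt2* were 1.18, -2.11 and -1.17, of the same sign without dexamethasone. The difference in response between the clones, defined below, was called at 2 of the 21 genes. Of 31 tested cAMP signalling genes, which DMII engages through its phosphodiesterase inhibitor, 6 were higher and 3 lower. *Pde4d* had 117 ± 9.48 against 41.5 ± 0.543 CPM, *Pde10a* had 9.90, 12.9 and 11.6 against 0.784, 0.785 and 0.722 CPM, and *Pde8a* had 0.0532, 0.0737 and 0.228 against 10.5, 11.1 and 9.14 CPM. The order of the clones was opposite at the last pair, with *Pde10a* higher in clone 1 (log2 fold change 3.90, SE 0.22) and *Pde8a* higher in clone 2 (log2 fold change -6.37, SE 0.28).

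Complement and acute phase genes gave 7 higher and 1 lower of 28 tested (median log2 fold change 0.37). *Serpina3g*, a protease inhibitor of the acute phase, had 66.4, 68.3 and 60.7 CPM in clone 1, against 10.7, 13.1 and 12.9 CPM in clone 2, both above stimulated WT cells at 0.722 ± 0.185 CPM (log2 fold change between the clones 2.41, SE 0.14, adjusted p = 2.39e-14). Its neighbour *Serpina3f* had 73.1 ± 2.86 against 16.6 ± 1.18 CPM, and these paralogs are near copies, so reads may be shared between them. Chemokines and cytokines gave 4 higher and 7 lower of 38 tested (median -0.27). *Ccl9*, a chemokine, had 42.2, 34.1 and 35.9 CPM in clone 1, against 165, 158 and 163 CPM in clone 2 (log2 fold change -2.12, SE 0.072, adjusted p = 4.24e-20), whereas *Cx3cl1* (fractalkine) had 391, 403 and 361 against 140.2, 162 and 141 CPM (log2 fold change 1.38, SE 0.059). *Il1rl1*, an interleukin receptor, had 28.1 ± 1.59 against 81.4 ± 5.04 CPM. *Bcl3*, a nuclear partner of NF-κB, had 14.2, 13.5 and 15.8 against 0.224, 0.588 and 0.361 CPM (log2 fold change 5.22, SE 0.22). Interferon-stimulated and antigen presentation genes gave 6 higher and 2 lower of 42 tested (median 0.32). The 6 higher genes were of low level, from a mean of 0.0899 CPM (*Psmb9*) to 2.42 CPM (*Tap1*) over both clones. The 2 lower ones, *Ifit2* and *Stat2*, averaged 7.54 and 7.81 CPM. *Ifitm1*, *Tap1*, *Ifit2* and *Stat2* lost their call with 1 library left out. Glutathione and antioxidant genes gave 6 higher and 1 lower of 38 tested (median 0.27).

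Imprinted genes, which are read from the copy of a single parent, were lower in clone 1 at 6 and higher at 2 of 28 tested. Of the lower genes, *H19*, *Peg3* and *Dlk1* were near the floor, with means of 0.111, 0.0612 and 0.0728 CPM over both clones. The list includes *Xist*, 1 of the 2 higher genes. *Mest* had 1.22, 0.811 and 1.64 CPM in clone 1, against 76.6, 62.2 and 64.5 CPM in clone 2, while stimulated WT cells had 1885 ± 34.7 CPM. All 6 clone libraries were far below WT, and clone 1 was below clone 2 (log2 fold change -5.82, SE 0.15, adjusted p = 5.05e-17). *Plagl1*, an imprinted zinc finger factor, had 0.277 ± 0.114 against 2.26 ± 1.04 CPM, with WT at 7.07 ± 0.719 CPM. *Ndn* (necdin) had 0, 0 and 0 CPM in clone 1, against 11.4, 11.3 and 11.9 CPM in clone 2.

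**Figure D2:**
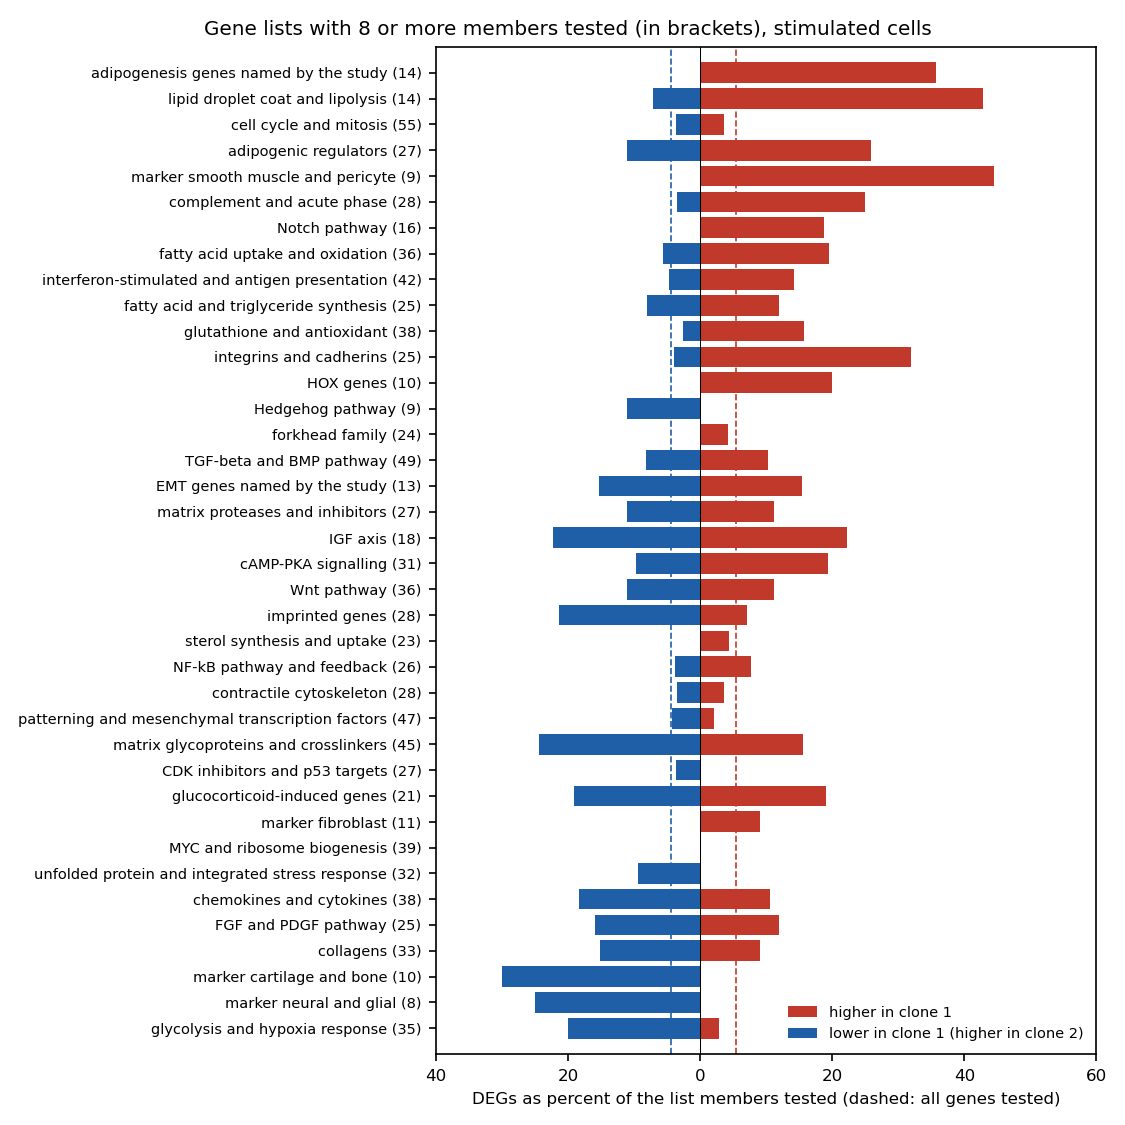
DEGs between the stimulated clones as a percent of the tested members of each gene list with 8 or more members tested (numbers in brackets), higher in clone 1 to the right and lower to the left; dashed lines mark the share over all genes tested, 5.50% and 4.48%. The lists drawn are ordered by median log2 fold change, from the adipogenesis genes (0.81) at the top to glycolysis and hypoxia genes (-0.62) at the bottom; lists with fewer members tested, such as the adipocyte markers (6 tested, median 3.15), are not drawn.

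For some genes the 2 clones differed by presence and absence of counts. Among genes that averaged 5 CPM or more in either clone, 19 genes had at most 3 counts over the 3 stimulated libraries of clone 2 and 6 genes over those of clone 1. *Nid1* (nidogen 1, a linker of basement membranes; GRCm38 chr13:13437551-13512269) had no count in the clone 1 libraries and 178, 194 and 205 CPM in clone 2, which is at least 4345-fold higher in clone 2 against a floor of 3 counts over the group. *Marcksl1*, an actin-binding protein, had 0.106, 0.0369 and 0 CPM in clone 1, or 3 counts, and 47.8, 52.4 and 46.4 CPM in clone 2, a ratio of 1103 (95% counting interval 377 to 5352). *Ndn* was at least 261-fold higher in clone 2. Stimulated WT cells had all 3 genes, at 172 ± 3.28, 146 ± 1.64 and 53.4 ± 2.90 CPM. Floors and intervals cover counting error only.

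In the other direction, *Plxdc2*, a membrane protein with a plexin domain, had 256, 282 and 283 CPM in clone 1, against 0, 0.0654 and 0 CPM in clone 2, a single count (ratio 13691, 95% counting interval 2457 to 540789). *Hgf*, hepatocyte growth factor, had 16.2, 15.0 and 17.6 CPM in clone 1 and a single count in clone 2, against 92.2 ± 8.17 CPM in stimulated WT cells. *Epb41l3*, a membrane skeleton protein, had 12.4, 10.0 and 14.5 CPM in clone 1 and no count in clone 2 (at least 201-fold higher), with WT at 16.9 ± 0.611 CPM. Of the 19 genes, 11 had at least 1 CPM in stimulated WT cells, and 14 had at most 3 counts in uninduced clone 2 as well. A few genes were found in a clone and not in WT. *Gpr149* (an orphan receptor), *St8sia4* (a polysialic acid transferase) and *Ccdc85a* had 15.4 ± 0.971, 9.35 ± 2.13 and 8.64 ± 1.16 CPM in clone 1 and no count in stimulated clone 2 or stimulated WT cells, and the predicted gene *Gm5878* had 11.6 ± 0.997 CPM in clone 2 and no count in stimulated clone 1 or stimulated WT cells.

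The upstream sequences of 4 of these genes are shown because such genes are the sharpest differences between the clones. They are again 250 bases before the RefSeq start in GRCm38.p6, all on the + strand. In the first 3 the capitals mark CG dinucleotides, the sites of DNA methylation in mammals, and in *Hgf* the forkhead core, which begins 24 bases before this start. The windows are chr13:13437352-13437601 for *Nid1*, chr7:62348027-62348276 for *Ndn*, chr4:129513331-129513580 for *Marcksl1* and chr5:16553245-16553494 for *Hgf*.
Nid1: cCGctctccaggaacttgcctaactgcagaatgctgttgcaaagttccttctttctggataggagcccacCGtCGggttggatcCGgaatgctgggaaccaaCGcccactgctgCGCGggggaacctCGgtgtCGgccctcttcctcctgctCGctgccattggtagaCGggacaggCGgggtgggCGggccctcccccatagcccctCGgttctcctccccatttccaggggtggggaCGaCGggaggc
Ndn: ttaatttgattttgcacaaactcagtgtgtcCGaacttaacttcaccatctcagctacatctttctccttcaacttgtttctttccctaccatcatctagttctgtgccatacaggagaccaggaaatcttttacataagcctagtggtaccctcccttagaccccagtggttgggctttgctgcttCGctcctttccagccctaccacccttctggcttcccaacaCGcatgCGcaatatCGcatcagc
Marcksl1: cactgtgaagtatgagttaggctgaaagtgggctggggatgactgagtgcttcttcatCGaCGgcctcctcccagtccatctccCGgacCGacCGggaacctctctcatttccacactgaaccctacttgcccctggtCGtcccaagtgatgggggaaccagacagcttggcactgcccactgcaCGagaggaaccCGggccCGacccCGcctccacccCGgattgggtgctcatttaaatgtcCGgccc
Hgf: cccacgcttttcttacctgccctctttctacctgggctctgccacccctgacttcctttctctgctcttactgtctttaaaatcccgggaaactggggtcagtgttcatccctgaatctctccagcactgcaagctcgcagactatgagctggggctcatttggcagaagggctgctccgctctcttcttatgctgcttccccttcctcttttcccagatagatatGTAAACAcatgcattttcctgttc
The printed stretches hold 16, 5 and 12 CG dinucleotides in *Nid1*, *Ndn* and *Marcksl1*. Over 300-base windows the median number was 12 for genes of this kind (20 of 25 matched), 20 for all tested genes, 14.5 for DEGs higher in clone 1 and 14 for those lower. The forkhead core occurred in 1 of the 29 windows of genes of this kind (3.45%), against 2.48% of the windows of tested genes and 3.65% of all windows.

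**Figure D3:**
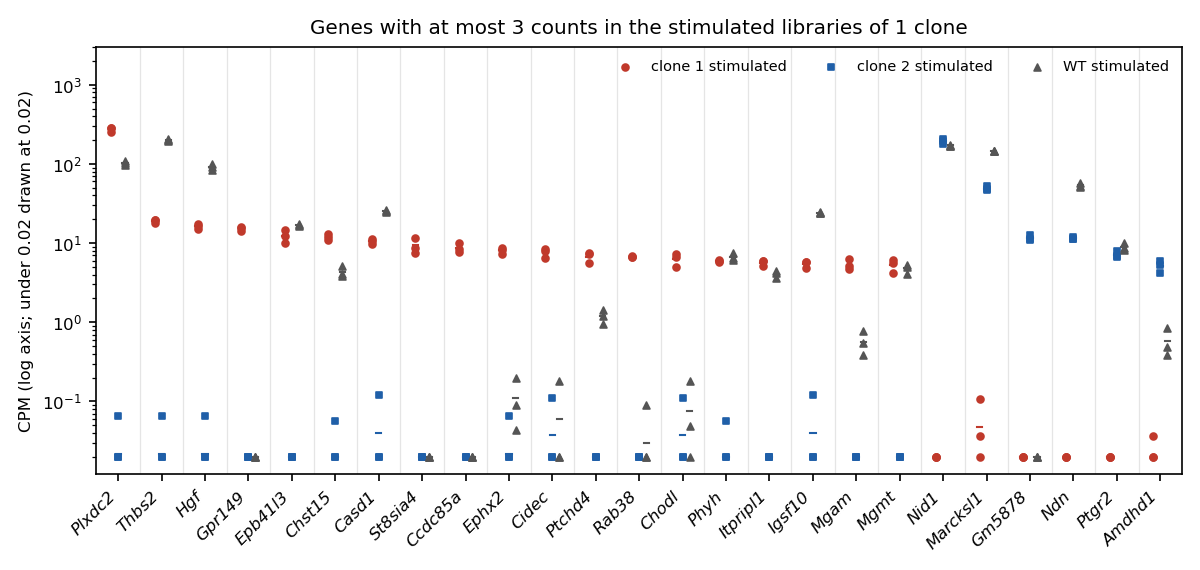
CPM on a log axis of the 25 genes with at most 3 counts in the stimulated libraries of either clone; each point is 1 library of stimulated clone 1, clone 2 or WT cells, and values under 0.02 CPM are drawn at 0.02. The first 19 genes are at or near 0 in clone 2 and the last 6 in clone 1, while WT cells lie at either level.

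Uninduced libraries of the same clones share no library with the stimulated ones and show which differences were there without stimulation. They differed at 1241 DEGs (8.67% of the genes tested). Of these, 755 were also DEGs in stimulated cells, which is 52.8% of the stimulated and 60.8% of the uninduced DEGs, and 745 of the 755 had the same direction. Taking all 1429 stimulated DEGs, 92.4% had the same sign in uninduced cells. *Thy1*, *Rspo3*, *Plxdc2*, *Igfbp5* and *Mest* were DEGs of the same direction in both conditions, and *Thy1* had uninduced means of 184 CPM in clone 1, against 0.616 CPM in clone 2. Among the 10 DEGs of opposite direction was *Ereg* (epiregulin, an EGF receptor ligand), with means of 108 CPM in stimulated clone 1 and 291 CPM in stimulated clone 2. Its log2 fold change was -1.44 stimulated and 1.16 uninduced, and it was chosen after its values were seen, as the most abundant of the 10.

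**Figure D4:**
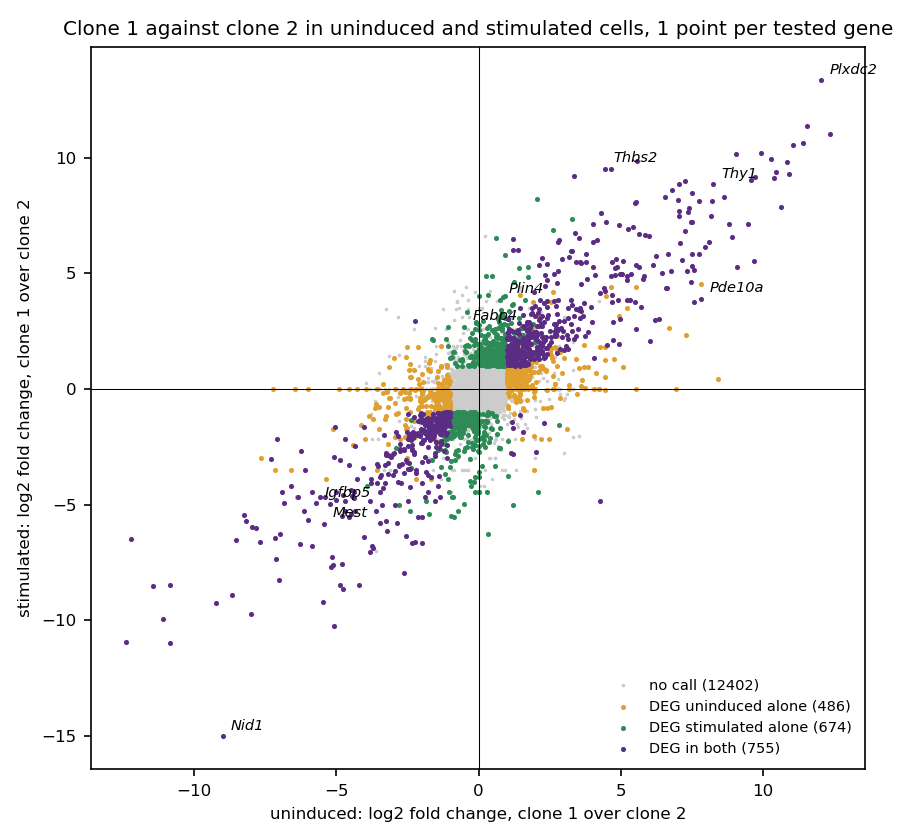
Log2 fold change of clone 1 over clone 2 in uninduced (x) and stimulated cells (y), 1 point per tested gene, coloured by where the gene was a DEG. Points of the 755 DEGs in both conditions run along the diagonal, with 10 in the quadrants of opposite sign.

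The remaining 674 stimulated DEGs were not DEGs in uninduced cells, but not being called there does not show that the clones were alike, and 277 of them had an adjusted p below 0.05 there. The difference in response, which is the change from uninduced to stimulated cells in clone 1 minus that in clone 2, tests this directly. It was called at 433 genes (3.02% of the genes tested), 221 positive and 212 negative, and at 167 (24.8%) of the 674. This contrast uses the same libraries as the other comparisons, which picked the 674 genes. A share of the 674 above 3.02% therefore follows in part from that choice and is not a result. Several lipid genes were among the 433. *Plin4* had uninduced means of 182 CPM in clone 1, against 108 CPM in clone 2 and stimulated means of 146 and 10.0 CPM, a difference in response of 3.11 on the log2 scale (SE 0.14, adjusted p = 1.00e-13). *Fabp4* went from 0.837 to 20.4 CPM in clone 1 and from 1.18 to 3.16 CPM in clone 2 (3.20, SE 0.47, adjusted p = 1.36e-05). *Acsl1* went from 55.0 to 224 CPM and from 44.5 to 55.4 CPM (1.72, SE 0.10), and *Agpat2* from 45.2 to 110.1 CPM and from 32.8 to 18.8 CPM (2.09, SE 0.14). *Pnpla2*, *Mgll*, *Acadm*, *Srebf1* and *Cebpa* were called as well, at 1.71, 2.07, 1.20, 1.11 and 1.24. *Plin1* and *Cidec* were near 0 in uninduced cells of both clones and their difference in response did not pass (adjusted p = 0.281 and 0.463).

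Several matrix and signalling genes had differences in response of the opposite sign. *Spp1* went from 575 to 199 CPM in clone 1 and from 424 to 640.5 CPM in clone 2 (-2.13, SE 0.11, adjusted p = 4.82e-11). *Ctgf* went from 11.4 to 87.5 CPM and from 7.60 to 197 CPM (-1.73, SE 0.23), *Lox* from 1835 to 4482 CPM and from 2215 to 10866 CPM (-1.01, SE 0.061), and *Prg4* from 10.7 to 1364 CPM and from 10.6 to 2868 CPM (-1.10, SE 0.19). *Ccl9* had 115 and 109 CPM in the uninduced clones and then 37.4 and 162 CPM (-2.19, SE 0.10, adjusted p = 2.02e-15). *Fn1*, at -0.25 (adjusted p = 0.352), did not pass, having been lower in clone 1 already in uninduced cells at 6031 against 10775 CPM.

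Stimulated WT libraries are not in the contrast between the clones, though they share its filter, scaling and estimate of the spread, and they place the clones relative to the unedited line. With only the 6 stimulated clone libraries fitted, 12597 genes were tested and 1261 were DEGs. The mean of stimulated WT libraries lay between the clones at 45.3% of the 1429 DEGs, above both at 32.0% and below both at 22.7%. Among the 529 DEGs averaging 5 CPM or more it lay between at 44.6%, above both at 25.1% and below both at 30.2%. The order of above and below thus depended on genes of low level. Of the 1429 DEGs, WT cells were nearer to clone 1 at 643 and nearer to clone 2 at 786. *Cebpa*, *Thy1* and *Itga1* are examples with WT between the clones, *Mest* and *Igf1* with WT above both, and *Plin4*, *Acsl1* and *Serpina3g* with WT below both.

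The sign of the difference was unevenly spread over the genome. Over the 9700 genes that averaged 5 CPM or more, the median log2 fold change was beyond 0.2 on 8 of 20 chromosomes. It was -0.49 on chromosome 10, -0.41 on 12, -0.36 on 1, -0.26 on 16 and -0.21 on 19, and 0.31 on 13, 0.31 on 17 and 0.22 on 2. The other 12 lay between -0.056 and 0.070. Uninduced libraries gave the same sign on all 8 chromosomes and medians within 0.059 of the stimulated ones on every chromosome. On chromosome 10, 10.5% of 495 genes had a positive sign, against 85.6% of 458 genes on chromosome 17. The chromosomes 1, 2, 10, 12, 13 and 17 held 531 of the 1429 DEGs (37.2%). Among these 6, the share of tested genes that were DEGs ran from 9.21% on chromosome 2 to 16.4% on 13, against 9.98% over all genes tested. It was 6.90% on chromosome 16 and 9.01% on 19. After the median of its chromosome was subtracted, 1254 DEGs still differed by more than 1 on the log2 scale. Of the DEGs described above, *Ctgf*, *P4ha1* and *Pfkl* on chromosome 10, *Lpin1* on 12, *Fn1*, *Col9a1* and *Prg4* on 1, *Ltbp3* and *Pgam1* on 19, *Fst* and *Hmgcs1* on 13 and *Notch3* on 17 differed by less than 1 after this subtraction, with *Ctgf* at -0.68 and *Fn1* at -0.72. *Plin4* on 17, *Agpat2* and *Cat* on 2, *Ddit3* and *Gli1* on 10, *Atf3* on 1, *Ccnb1* on 13 and *Dusp1* on 17 still differed by more than 1. The part of these chromosome-wide values in the calls, and whether the clones differ in chromosome copies, was not tested.

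**Figure D5:**
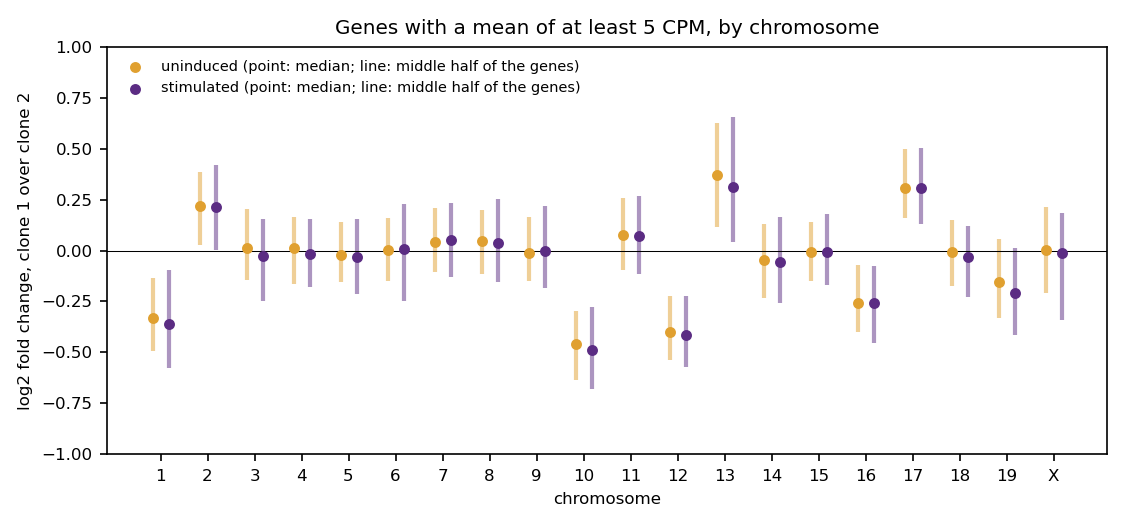
Median log2 fold change of clone 1 over clone 2 (points) and the middle 50% of the genes (lines) per chromosome, for genes averaging 5 CPM or more, in uninduced (left point) and stimulated (right point) cells. Chromosomes 1, 10, 12, 16 and 19 lie below 0 and chromosomes 2, 13 and 17 above it in both conditions, while the other 12 lie between -0.056 and 0.070 in stimulated cells.

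Some DEGs were neighbours. There were 11 runs of at least 4 consecutive tested genes that were DEGs of the same direction, 61 genes in all, 8 runs higher in clone 1 and 3 lower. All 3 lower runs lay on chromosome X, between *Armcx4* and *Capn6* (GRCm38 chrX:134686519-143827414). In this stretch 28 of 41 tested genes were lower in clone 1 and 1 was higher, with a median log2 fold change of -1.24 stimulated. The median was 0.00 over the 429 tested genes of the rest of the chromosome. The stretch was bounded by the ends of these runs, so its stimulated count and median follow in part from that choice. The uninduced libraries are not in the contrast that gave the runs. In them 27 of the 41 genes were lower and 0 higher, with a median of -1.13, against 0.027 over the rest of the chromosome. Against stimulated WT cells the median of the stretch was -0.93 in clone 1 and 0.15 in clone 2. *Tmem164* had 40.6, 38.0 and 43.8 CPM in clone 1, against 99.4, 93.8 and 94.5 CPM in clone 2, with WT at 107 ± 9.76 CPM. *Tsc22d3* and *Acsl4*, given above among the glucocorticoid and fatty acid genes, lie in this stretch. *Xist*, the RNA of X inactivation, had 33.8, 52.99 and 54.0 CPM in clone 1, against 15.7, 25.4 and 24.5 CPM in clone 2 (log2 fold change 1.11, SE 0.27, adjusted p = 0.00422), and it lost its call without clone 2 replicate 1 (0.92).

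The clustered histone genes of chromosome 13 made up 2 of the higher runs, with 25 of 38 tested genes higher in clone 1 and 0 lower (median log2 fold change 1.87). *Hist1h4k* had 5.27, 4.83 and 6.38 CPM in clone 1, against 0.728, 0.719 and 0.902 CPM in clone 2. These genes are near copies of each other and most of their RNA lacks a poly(A) tail, so their values in poly(A) libraries are uncertain. Without them the chromosome 13 median was 0.30. A further run on chromosome 12 held *Serpina3c*, *Serpina3f*, *Serpina3g* and *Serpina3h*, and another on chromosome 2 held *Apip* and *Cat* at its ends.

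Summed marker levels of other cell types were near 0 for epithelium. Those of fibroblasts, of cartilage and bone and of smooth muscle were over the adipocyte list in both clones. Those of endothelium and of neural and glial cells were over it in clone 2 and under it in clone 1. Neural and glial markers summed to 141 to 156 CPM in clone 1 and 172 to 195 CPM in clone 2, and 2 of 8 tested were lower in clone 1. The summed level of 12 leukocyte markers was 15.8 to 22.4 CPM in stimulated clone 1 and 14.8 to 17.98 CPM in stimulated clone 2, that of endothelial markers 40.7 to 42.1 and 53.5 to 56.1 CPM, and that of epithelial markers 0 to 0.05 and 0 to 0.22 CPM. *Ptprc*, *Cldn5*, *Kdr*, *Epcam*, *Myod1* and *Myog* had no count in the 6 libraries. Fibroblast markers summed to 60309 to 63061 CPM in clone 1, whereas clone 2 had 74022 to 79382 CPM, and 1 of 11 tested, *Thy1*, was a DEG. Cartilage and bone markers summed to 1506 to 1619 CPM in clone 1, whereas clone 2 had 2574 to 2753 CPM, and 3 of 10 tested were lower in clone 1. Of 9 tested smooth muscle and pericyte markers 4 were higher in clone 1, *Notch3*, *Mcam*, *Rgs5* and *Lmod1* (*Rgs5* at 0.88 without clone 1 replicate 1), while the summed level of the list was 530 to 548 CPM in clone 1 and 511 to 549 CPM in clone 2. Among the genes named above, *Ccnd1*, *Ctgf*, *Ddit3*, *Gm5878*, *Hmgcs1*, *Mest*, *Mt2*, *Rspo3*, *Spp1*, *Spry1* and *Xist* share between 10.9% and 73.5% of their exon bases with another gene, and since the strand setting of the counting is not given, their values may include reads of that gene.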

How the data were processed

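Poly(A) RNA of 18 libraries in 6 groups of 3 was sequenced. The authors aligned reads to mm10 with HISAT2, per the labels, and deposited raw counts per gene. Neither the counting program nor its annotation or strand option is stated in the sources used here. Groups were taken from the sample labels. Members, gene lists and tests were chosen with earlier results of these data known.

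Counts were fitted with edgeR 4.0.16 (R 4.3.3, limma 3.58.1; TMM, filterByExpr with a minimum count of 10, quasi-likelihood, 6 group means over all 18 libraries). Contrasts were clone 1 minus clone 2 in stimulated cells, in uninduced cells, and the difference between these. Alternatives included DESeq2 1.42.0. Tables and figures used Python 3.11.15. The tests were tested on simulated data. Promoter windows and names came from RefSeq GRCm38.p6. The floor of 3 counts equals 0.0442 CPM in stimulated clone 1 and 0.0603 CPM in clone 2. Guide RNA sequences are not printed here.

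Named genes were *Foxs1*, the 12 largest rises and 12 largest falls at 5 CPM or more without overlap and with no predicted symbol, the 5 most abundant DEGs per direction, up to 4 DEGs of each of 44 lists (the most abundant member where a list had none), genes without counts in either clone, the 3 largest response DEGs per direction, and both ends of each run of neighbours.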

Additional observations from a re-analysis of the deposited data

Results flagged for a closer look

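The difference between the clones was itself different in stimulated and uninduced cells at 433 genes, by the interaction term of the edgeR quasi-likelihood fit. Of the named genes, 44 were among them, 23 with a positive and 21 with a negative difference in response (clone 1 minus clone 2, log2 scale). The positive values were *Acadm* 1.20, *Acsl1* 1.72, *Adamts7* 1.43, *Agpat2* 2.09, *C1s1* 1.33, *Ccdc8* 4.88, *Ccne2* 1.17, *Cdh13* 1.12, *Cebpa* 1.24, *Clec11a* 1.65, *Col5a3* 1.44, *Fabp4* 3.20, *Fgfr2* 1.79, *Itga11* 3.78, *Lmod1* 1.49, *Mgll* 2.07, *Plagl1* 1.80, *Plin4* 3.11, *Pnpla2* 1.71, *Ptgis* 2.56, *Serpina3g* 1.39, *Srebf1* 1.11, *Thbs2* 5.09. The negative values were *Capn6* -1.05, *Ccl9* -2.19, *Ccnd1* -1.16, *Crip2* -2.11, *Ctgf* -1.73, *Dmp1* -1.24, *Gli1* -2.49, *Il4ra* -1.34, *Itgb8* -3.16, *Klf4* -1.23, *Lox* -1.01, *Matn4* -1.002, *Nid1* -6.02, *Pcdh1* -2.78, *Pde10a* -3.91, *Pde1a* -1.11, *Pde8a* -3.81, *Plaur* -1.64, *Prg4* -1.10, *Ptgr2* -5.18, *Spp1* -2.13. *Nid1*, *Ptgr2*, *Ccdc8* and *Thbs2* have 0 or 1 count in a group, so their fitted values depend on the prior count and bound nothing.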

How the results depend on the processing

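The 1429 stimulated, 1241 uninduced and 433 response DEGs became 643, 542 and 89 when tested against the fold threshold itself (glmTreat), and 6500, 6039 and 2069 with no fold threshold; the DEGs shared by stimulated and uninduced cells became 343 and 4341. Leaving out 1 library at a time gave 1325 to 1390, 1135 to 1199 and 384 to 429 DEGs, with 697 to 748 shared. DESeq2 gave 1496, 1265 and 475. With only the groups compared in the fit, counts were 1261, 1170 and 474. With the replicate number as a block, counts were 1398, 1199 and 416, with 743 shared. Same-numbered libraries did not deviate together (r -0.039 to 0.025), which cannot show whether the numbers pair them. Of 174 called named genes, 61 lost their call under glmTreat, 32 with 1 library left out, 1 under DESeq2 (*Il4ra*) and 0 under the block. The uncalled *Des* changed sign, from -0.09 to 0.04 without clone 1 replicate 3, 0.0015 without clone 2 replicate 1 and 0.26 without clone 2 replicate 3, within a range of -0.42 to 0.26. At 1 CPM in place of 5, 52 genes lacked counts in clone 2 and 25 in clone 1. Runs of 3 genes numbered 21. With 1 library left out, 7 chromosomes in place of 8 had medians beyond 0.2. Genes near the floor of 3 counts are limited by depth.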
